A study of Mus musculus with 15 samples.

Results

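The genes described here are the mouse genes of major histocompatibility complex (MHC) class I presentation and of the interferon response, chosen by name: the class I chains, the enzymes and transporters that supply their peptides, and the genes that interferon switches on. Of 34 listed genes, 32 had a probe set with exactly 1 gene symbol, out of 18193 such genes on the array. A gene with several probe sets is represented by the brightest, by mean signal over the 15 arrays. Isg15 shared its probe set with Gm9706 and entered no test, and Ifi44 was not analysed here.

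The samples were 3 lesions of the H1 subtype, 4 lesions of the H2 subtype and 8 samples of normal lung cells. All came from lung frozen sections of mice with a K-RasG12V knock-in allele, which is also linked to a color marker, and all were cut out by laser capture microdissection 3 months after infection with an adenovirus that carries Cre recombinase. A lesion held about 500 cells, and the normal cells were taken from the same sections, so the normal samples come from lungs that also received virus and hold K-RasG12V cells. The sources used here do not give the strain, age or number of animals, the samples that share an animal, or the basis of the H1 and H2 labels. Captured samples of 1 animal are not independent: the p-values below rest on the spread over samples, and can be too small if a group holds several samples of an animal, or too large if different groups do. Should the H1 and H2 labels stem from these profiles, a test between them would not be independent of that choice.

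Class I molecules are built from a heavy chain and beta-2 microglobulin and show peptides from inside the cell to CD8 T cells. The immunoproteasome cuts the peptides, the TAP transporter carries them into the endoplasmic reticulum and tapasin helps to load them. Interferons bind cell surface receptors, JAK kinases activate STAT proteins, and these, together with Irf9, switch on antiviral genes whose promoters hold interferon-response elements. Interferon gamma acts mainly through gamma-activated sites, and the transcriptional coactivator Nlrc5 drives class I genes.

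The promoters of 4 members are shown because they hold matches to the element through which interferon acts and belong to genes the results return to: Ifit3 and Ifit1, the effectors with the lowest differences from normal cells in H2, the GTPase Gbp2, and B2m, the light chain of class I. Each is the 250 bases before the transcription start in RefSeq's mouse build GRCm38.p6, written 5′ to 3′ along the gene. Capitals mark matches on either strand to the core of the interferon-response element, GAAANNGAA, where N is any base (overlapping matches run together). Ifit3 lies at chr19:34583279-34583528 and Ifit1 at chr19:34640639-34640888, both on the plus strand, as are Gbp2 at chr3:142620413-142620662 and B2m at chr2:122147437-122147686.
Ifit3: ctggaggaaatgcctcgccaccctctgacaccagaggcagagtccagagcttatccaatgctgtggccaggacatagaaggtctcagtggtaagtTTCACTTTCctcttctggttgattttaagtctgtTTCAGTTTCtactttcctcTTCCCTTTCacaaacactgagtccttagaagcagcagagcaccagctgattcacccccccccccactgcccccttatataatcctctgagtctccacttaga
Ifit1: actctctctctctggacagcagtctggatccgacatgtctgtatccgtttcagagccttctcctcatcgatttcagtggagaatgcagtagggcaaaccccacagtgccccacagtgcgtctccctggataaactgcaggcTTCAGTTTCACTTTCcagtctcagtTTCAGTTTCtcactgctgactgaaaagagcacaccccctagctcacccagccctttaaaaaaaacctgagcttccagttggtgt
Gbp2: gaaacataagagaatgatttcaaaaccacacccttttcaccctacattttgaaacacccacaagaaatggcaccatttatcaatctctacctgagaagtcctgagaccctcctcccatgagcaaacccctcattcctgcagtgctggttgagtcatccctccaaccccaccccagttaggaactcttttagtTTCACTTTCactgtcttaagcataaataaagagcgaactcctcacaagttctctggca
B2m: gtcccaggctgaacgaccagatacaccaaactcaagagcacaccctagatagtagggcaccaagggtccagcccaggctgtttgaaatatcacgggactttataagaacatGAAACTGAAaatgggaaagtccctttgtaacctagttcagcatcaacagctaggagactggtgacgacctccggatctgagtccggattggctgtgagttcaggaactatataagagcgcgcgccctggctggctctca
Ifit3 and Ifit1 held 3 matches each, and Gbp2 and B2m held 1 each. The match nearest the start ended 93 bases before it in Ifit3, 75 bases in Ifit1, 49 bases in Gbp2 and 130 bases in B2m. A window was found for 26 of the 32 measured members, 31 windows in all since some genes have several starts. The core GAAANNGAA stood in 41.9% of the members' windows, against 7.13% of all 32851 promoter windows of the same length. TTCNNNGAA, the gamma-activated site, stood in 19.4% of the members' windows, against 7.02% of all windows. Of the 26 genes, 16 held either motif and 3 held both. The windows of H2-K1, H2-D1 and Tap1 held neither, which says only that these letters are not in them. A match is a description of the sequence, not a measured binding site.

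Values are log2 signals per probe set as the authors deposited them, so a difference of 1 is a doubling, and levels are compared between samples of the same probe set only. Differences were tested with limma across all genes, with Benjamini-Hochberg adjustment, and an adjusted p below 0.05 made a call. The value after ± is the standard deviation (SD) for a group and the standard error (SE) for a difference. The SD of the signals over genes, here the spread of an array, was 1.31 to 1.495 in H1, 1.52 to 1.78 in H2 and 1.14 to 1.67 in normal cells. Normal replicates 2 and 8 had the narrowest spread (1.14 and 1.20). The surfactant gene Sftpc, the defining marker of alveolar type 2 cells, was high in 14 of the 15 arrays (8.52 or more) and was 4.87 in normal replicate 2.

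In none of the 4 comparisons was a member called. Over all genes, limma called 0.291% in lesions against normal cells, 0.011% in H1 against normal cells, 3.38% in H2 against normal cells and 0.0055% in H1 against H2. At an unadjusted p under 0.05, 0 members were higher and 2 lower in lesions than in normal cells, against 8.1% and 4.66% of all genes. In H1 against normal cells 1 was higher and 2 were lower (all genes 1.85% and 2.39%), and in H2 against normal cells 1 was higher and 5 were lower (all genes 12.7% and 8.7%). Between H1 and H2 1 was higher in H1 and 0 were lower (all genes 4.9% and 7.41%).

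Most members nonetheless had lower means in the lesions. Relative to normal cells, 24 of the 32 had a lower mean in lesions, 24 in H1 alone and 22 in H2 alone, where 57.7%, 56.5% and 53.7% of all genes were lower. The median difference of the members was -0.23 in lesions, -0.25 in H1 and -0.13 in H2, beside -0.06, -0.05 and -0.04 over all genes. These 3 comparisons share the same normal samples. A single normal sample weighed on them: without normal replicate 3, the members' medians were -0.10, -0.07 and -0.09. The medians over all genes were then -0.045, -0.038 and -0.027. The members with lower means were then 21 in lesions, 19 in H1 and 18 in H2. The shares of all genes lower without that sample are not given here.

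**Figure D1:**
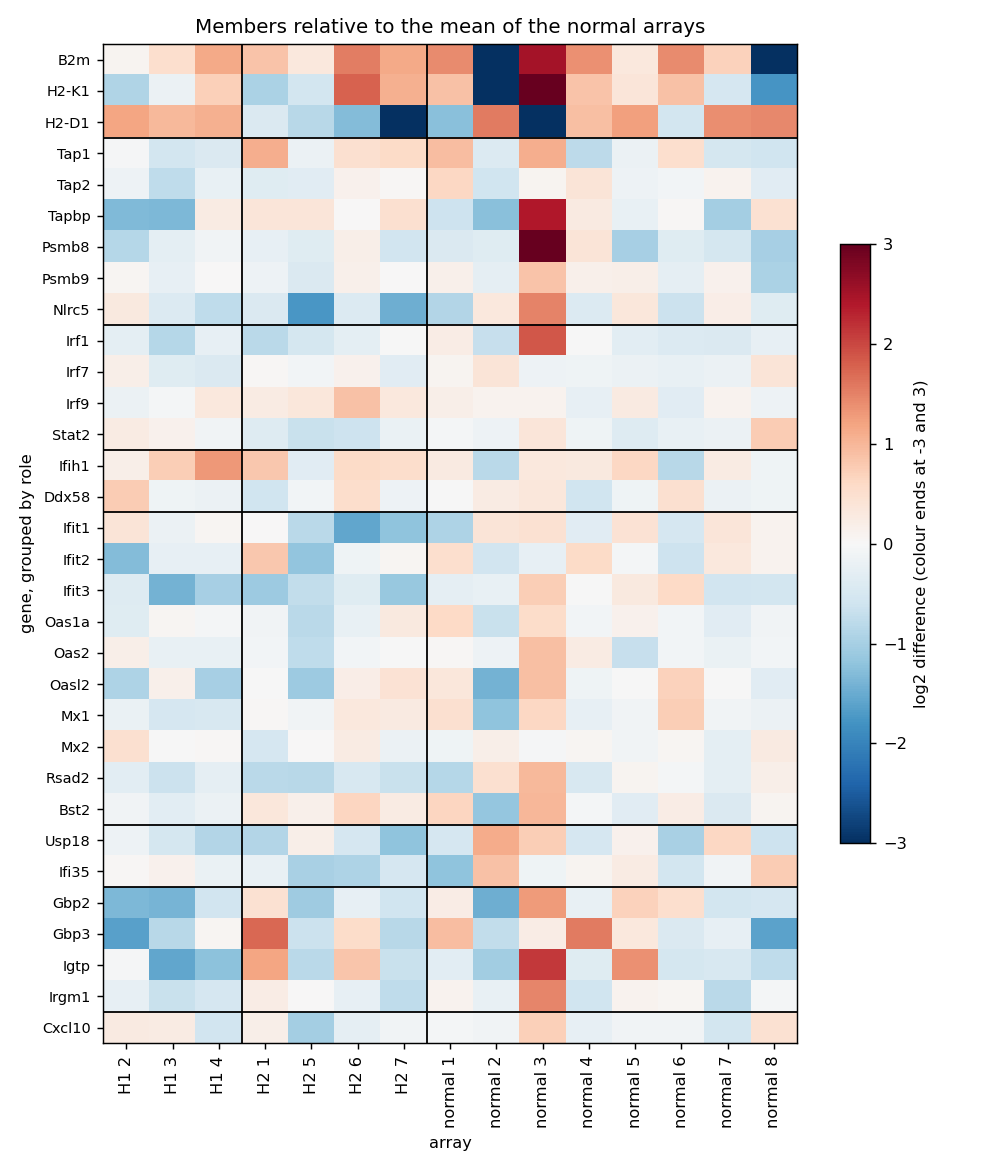
Log2 signal of the 32 members (rows, grouped by role) in the 15 arrays (columns), as the difference from the mean of the 8 normal arrays, with colours ending at -3 and 3. Normal replicate 3 stands out as the column with the most high values (18 of 32 members have their highest value there), and normal replicates 2 and 8 have the lowest B2m.

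Normal replicate 3 had the highest value of all 15 arrays for 18 of the 32 members (56.2%), while it was the highest for 11.8% of all genes. Its Psmb8 signal was 7.89, where no other array exceeded 5.00. It was also the highest array for 7 of 10 endothelial markers and 4 of 6 alveolar type 1 markers, among them Pecam1, an endothelial adhesion molecule, at 6.63 against 2.77 to 4.61 in the other normal arrays. Its mean level was the highest of the normal arrays for alveolar type 2 (10.07) and epithelial markers (7.47) as well. For macrophage, lymphocyte, neutrophil, dendritic cell and fibroblast markers another normal array was higher. Its spread, 1.67, was the widest of the normal arrays. The part of these markers or of the spread in its member levels was not tested.

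For each class I chain, the range of the normal samples was wider than any difference between group means. B2m, which encodes beta-2 microglobulin, had signals of 10.08, 10.50 and 11.15 in H1 and 10.85, 10.32, 11.54 and 11.14 in H2, against a lowest value of 6.00, a median of 11.04 and a highest of 12.49 in normal cells. All 7 lesions lay inside the range of the normal samples, of which 6 lay between 10.31 and 12.49 and replicates 2 and 8 at 6.00 and 6.31. B2m averaged 10.80 ± 0.52 in lesions and 10.002 ± 2.46 in normal cells (SD, n = 7 and 8), a difference of 0.79 ± 0.85 (SE, adjusted p = 0.731 in limma). Without normal replicates 2 and 8 it was -0.49 (adjusted p = 0.713).

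H2-K1, a classical class I heavy chain, had signals of 6.72, 7.44 and 8.33 in H1 and 6.66, 7.07, 9.38 and 8.68 in H2, against a lowest value of 3.21, a median of 8.23 and a highest of 11.32 in normal cells. The groups overlapped throughout. The difference from normal cells was -0.13 ± 1.16 in H1 and 0.33 ± 1.05 in H2 (SE, limma adjusted p = 0.998 and 0.888), and the 95% intervals ran from -2.58 to 2.33 and from -1.90 to 2.55. Large changes in either direction lie inside both intervals. The lowest and the highest H2-K1 values were in normal replicates 2 and 3, as for B2m. The other 3 H2-K1 probe sets, which are dimmer, gave -0.42, -0.32 and -0.21 for H2 minus normal cells. For H1 minus normal cells they gave -0.10, -0.32 and -0.755.

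H2-D1, the other classical heavy chain measured, had signals of 8.56, 8.36 and 8.44 in H1 and 6.94, 6.56, 6.08 and 4.37 in H2, against a lowest value of 2.65, a median of 8.46 and a highest of 8.95 in normal cells. Every H1 value lay above every H2 value, as in 8.1% of all genes, and both lay inside the range of the normal samples. H1 exceeded H2 by 2.47 ± 1.18 (SE; limma adjusted p = 0.409). H2 differed from normal cells by -1.39 ± 0.95 (adjusted p = 0.414), and without normal replicate 3 by -2.07 (adjusted p = 0.0385), which is past the threshold. H2-D1 was the only member called without that sample. Over all 18193 genes that fit called 1104 higher and 274 lower, where all arrays gave 525 and 90.

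This H2-D1 probe set did not follow the gene's other probe sets. Normal replicate 3 was its lowest array, at 2.65, but was the highest array for 7 of the 8 other H2-D1 probe sets. Over the 15 arrays, its Pearson r with those 8 ran from -0.63 to -0.35. On the second brightest H2-D1 probe set, looked at after seeing the data, the values were 5.45 to 5.75 in H1, 4.00 to 5.77 in H2, and 7.83 in normal replicate 3 and 5.18 to 5.85 in the other normal samples. There the means differed by -0.25 between H1 and normal cells, where the brightest probe set gave 1.07, and by -0.89 between H2 and normal cells. Class I heavy chains are close copies of each other, and probe sets with the suffix x can bind transcripts of related genes. Signals of such probe sets are uncertain as measures of 1 gene. Neither the brightest nor the second brightest H2-D1 probe set has that suffix. The remaining H2-D1 probe sets have it, as does the H2-K1 probe set used here. Why the brightest H2-D1 probe set differs from the others was not tested.

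The class I signals also moved with the spread of the arrays. Over the 15 arrays, which share the authors' normalization, Pearson r with array spread was 0.75 for B2m, 0.75 for H2-K1 and -0.84 for H2-D1, and r between B2m and H2-K1 was 0.87. With the spread as a covariate, the difference of H2 from normal cells was -1.65 for B2m, -2.62 for H2-K1 and 1.21 for H2-D1, each on the other side of 0 from the fit without it, and none was past the threshold.

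**Figure D2:**
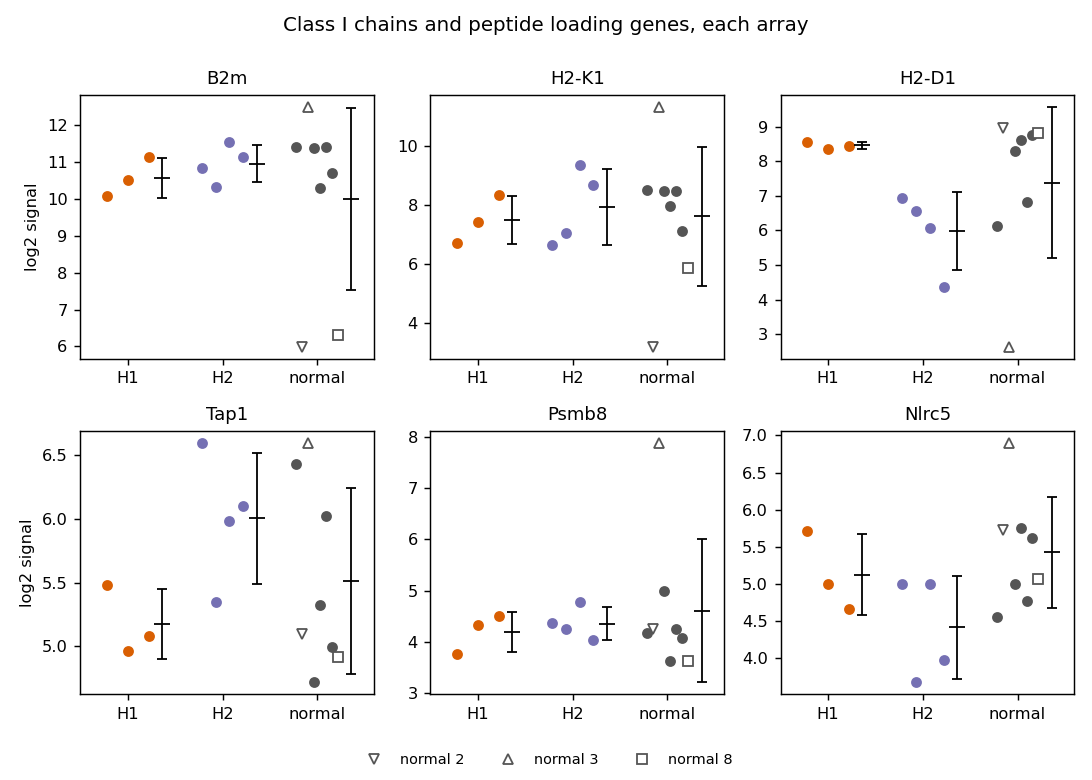
Log2 signal of 3 class I chains and 3 peptide loading genes in each array, by group, with the group mean and SD at the right of each group and a separate scale in each panel. Open symbols mark normal replicates 2, 3 and 8, which set the lowest and highest values of B2m and H2-K1, while H2-D1 is lowest in normal replicate 3 (2.65).

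The 6 genes of peptide supply and loading were not called either, and 5 of them had lower means in lesions than in normal cells (differences of -0.71 to 0.14). That count rested on normal replicate 3: without it, 2 of the 6 (Tap2 and Nlrc5) had lower means. Nlrc5, the coactivator of class I genes, had signals of 5.72, 5.01 and 4.66 in H1 and 5.00, 3.68, 5.01 and 3.97 in H2, against a lowest value of 4.55, a median of 5.34 and a highest of 6.90 in normal cells. In H2 replicates 5 and 7 it lay below all normal samples. Its difference was -1.01 ± 0.40 in H2 against normal cells (SE; limma adjusted p = 0.159) and -0.30 ± 0.44 in H1.

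Tap1, a subunit of the peptide transporter, had signals of 5.48, 4.96 and 5.08 in H1 and 6.59, 5.35, 5.99 and 6.10 in H2, against a lowest value of 4.72, a median of 5.21 and a highest of 6.60 in normal cells. Of the H2 lesions, 3 lay above every H1 lesion, and replicate 5 lay among them. H1 differed from H2 by -0.83 ± 0.45 (SE; limma adjusted p = 0.453). The other 3 Tap1 probe sets, which are dimmer, gave -0.14, -0.19 and 0.15 for H1 minus H2, and -0.11, -0.17 and -0.25 for H2 minus normal cells, where the brightest gave 0.49. Tap2, the partner subunit, Tapbp, which encodes tapasin, and the immunoproteasome subunits Psmb8 and Psmb9 differed from normal cells by -0.81 to -0.06 in H1 and by -0.25 to 0.31 in H2. Without normal replicate 3, Tapbp differed by -0.46 in H1 and 0.66 in H2, and Psmb8 by 0.052 in H1 and 0.21 in H2, where all arrays gave -0.42 and -0.25. Psmb9 also lay on the other side of 0 without it, at 0.067 in H1 and 0.013 in H2. With all arrays, the other Tapbp probe set, which is dimmer, gave -0.43 in H1 and -0.25 in H2. The dimmer Psmb8 probe set gave -0.29 in H1 and 0.32 in H2.

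Of the 4 regulators of interferon transcription, Irf9 and Stat2, which with a further STAT protein form the complex that binds interferon-response elements, had the lowest p-values, in opposite directions. Irf9 had signals of 3.02, 3.16 and 3.52 in H1 and 3.45, 3.55, 4.09 and 3.53 in H2, against a lowest value of 2.86, a median of 3.30 and a highest of 3.47 in normal cells. It was above all normal samples in 3 of 4 H2 lesions, by 0.45 ± 0.18 on average over normal cells (SE; limma adjusted p = 0.173). All these values but 4.09 lie under 3.99, the median of the mean signals of all probe sets, where a difference is poorly scaled.

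Stat2 had signals of 4.41, 4.29 and 4.07 in H1 and 3.79, 3.50, 3.54 and 3.96 in H2, against a lowest value of 3.77, a median of 4.03 and a highest of 4.93 in normal cells. All H1 values exceeded all H2 values, as in 8.1% of all genes. H2 differed from normal cells by -0.47 ± 0.21 (SE; limma adjusted p = 0.215) and H1 from H2 by 0.56 ± 0.26 (adjusted p = 0.405). On the other Stat2 probe set, which is dimmer, the values overlapped, at 3.50 to 3.99 in H1 and 3.01 to 4.07 in H2. There H1 differed from H2 by 0.25, and H2 from normal cells by -0.19. Irf1 and Irf7, transcription factors of the interferon response, differed from normal cells by -0.47 and -0.21 in H1 and by -0.41 and -0.06 in H2. Without normal replicate 3, where Irf1 was 7.32, Irf1 differed by -0.21 in H1 and -0.14 in H2.

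The RNA sensors recognise viral double-stranded RNA in the cytoplasm. Ifih1, which encodes MDA5, had signals of 4.34, 4.90 and 5.47 in H1 and 4.97, 3.83, 4.73 and 4.70 in H2, against a lowest value of 3.34, a median of 4.43 and a highest of 4.80 in normal cells. It exceeded every normal sample in 2 of 3 H1 lesions and 1 of 4 H2 lesions. The difference from normal cells was 0.74 ± 0.35 in H1 (SE; limma adjusted p = 0.997) and 0.39 ± 0.31 in H2 (adjusted p = 0.494). Ddx58, which encodes RIG-I, had signals of 5.70, 4.80 and 4.76 in H1 and 4.34, 4.85, 5.45 and 4.79 in H2, against 4.35, 4.85 and 5.41 as the lowest, median and highest in normal cells. These groups overlapped, with a difference of 0.02 ± 0.21 between lesions and normal cells. The other 2 Ddx58 probe sets had lower means in lesions, by -0.38 and -0.44, and in H2, by -0.57 and -0.63. Of the 11 members with more than 1 probe set, 6 had probe sets on both sides of 0 in lesions against normal cells.

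Of the 10 antiviral effectors, 8 had lower means in lesions than in normal cells (differences of -0.88 to 0.11). Ifit3, an interferon-induced protein with tetratricopeptide repeats, had signals of 5.20, 4.18 and 4.58 in H1 and 4.50, 4.86, 5.24 and 4.45 in H2, against a lowest value of 5.01, a median of 5.48 and a highest of 6.34 in normal cells. In 5 of the 7 lesions it lay below every normal sample, and H1 replicate 2 and H2 replicate 6 overlapped the normal range. It averaged 4.72 ± 0.40 in lesions and 5.59 ± 0.50 in normal cells (SD, n = 7 and 8), a difference of -0.88 ± 0.23 (SE; limma adjusted p = 0.121). H1 and H2 differed from normal cells by -0.94 ± 0.31 and -0.83 ± 0.28, and the difference between them was -0.11 with a 95% interval from -0.86 to 0.64. Ifit3 kept its direction with each array left out in turn (-0.96 to -0.77 in lesions).

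Ifit1, of the same family, had signals of 6.04, 5.49 and 5.72 in H1 and 5.68, 4.86, 4.10 and 4.45 in H2, against a lowest value of 4.74, a median of 5.90 and a highest of 6.11 in normal cells. H1 lay within the normal range, and 2 of the 4 H2 lesions lay below it. The difference from normal cells was -0.89 ± 0.31 in H2 (SE; limma adjusted p = 0.123) and 0.09 ± 0.35 in H1, and H1 exceeded H2 by 0.98 ± 0.39 (adjusted p = 0.352). With limma's array weights, Ifit1 was called in H2 against normal cells (-1.14, adjusted p = 0.0201). It was the only member called there. That fit called 1586 genes higher and 613 lower of all 18193, where the fit without weights called 525 and 90.

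Rsad2, which encodes the antiviral enzyme viperin, differed from normal cells by -0.41 ± 0.30 in H1 and -0.70 ± 0.27 in H2 (SE, limma adjusted p = 0.997 and 0.156). Its dimmer probe sets gave -0.18 and 0.27 in H1, and -0.67 and -0.20 in H2. The other 7 effectors were Ifit2, the 2′-5′ oligoadenylate synthetase family genes Oas1a, Oas2 and Oasl2, the dynamin-like GTPases Mx1 and Mx2, and Bst2, which encodes tetherin. Their differences from normal cells ran from -0.59 to 0.17 in H1 and from -0.23 to 0.34 in H2. Bst2 and Mx1 were lower in all 3 H1 lesions than in all 4 H2 lesions, as 10.1% of all genes were (limma unadjusted p = 0.172 and 0.176). The Mx1 values, 2.67 to 2.99 in H1 and 3.06 to 3.50 in H2, lie under 3.99.

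**Figure D3:**
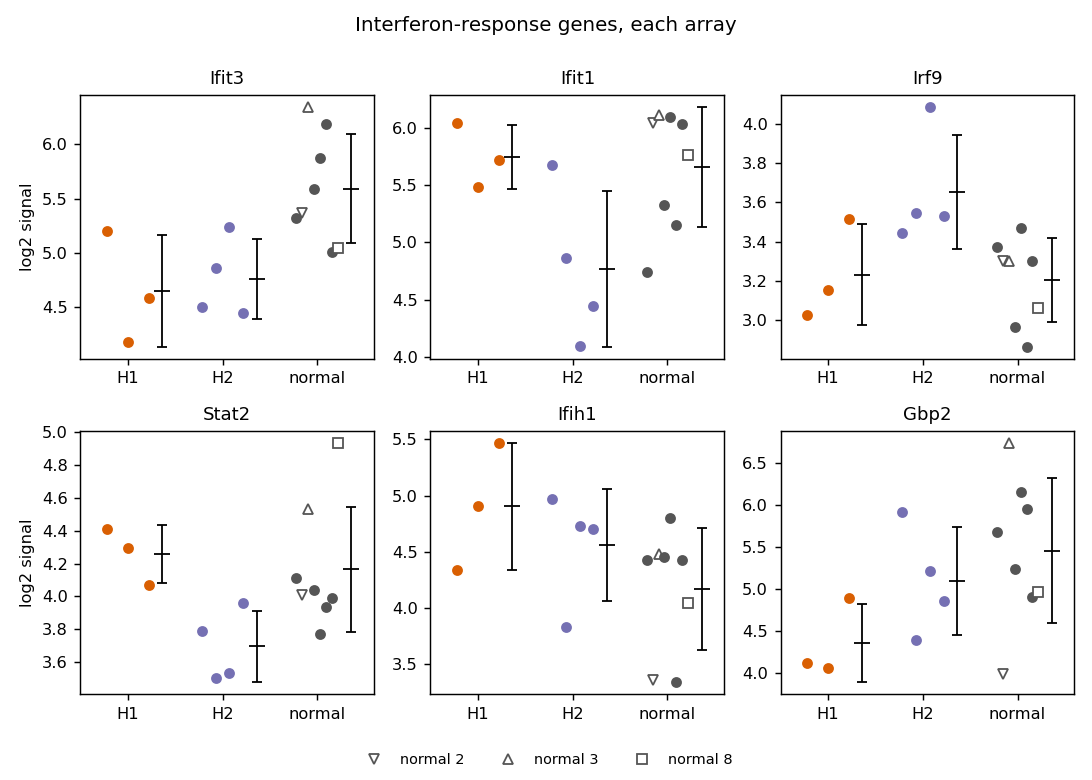
Log2 signal of 6 interferon-response genes in each array, by group, with the group mean and SD at the right of each group and a separate scale in each panel. Ifit3 is low in both lesion groups (4.18 to 5.24) relative to normal cells (5.01 to 6.34), whereas Ifit1 and Stat2 have lower means in H2 than in H1.

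Of the induced genes tied to the ubiquitin-like modifier Isg15 and their like, Usp18, the protease that removes Isg15 from proteins, had signals of 3.24, 2.88 and 2.53 in H1 and 2.51, 3.57, 2.90 and 2.19 in H2, against 2.41, 3.21 and 4.51 as the lowest, median and highest in normal cells. All lesions but H2 replicate 7 lay inside that range. Its difference was -0.57 ± 0.31 in lesions (SE; limma adjusted p = 0.472), at signals under 3.99 for most arrays. Ifi35 had signals of 5.66, 5.76 and 5.43 in H1 and 5.42, 4.65, 4.72 and 5.13 in H2, against 4.43, 5.62 and 6.52 as the lowest, median and highest in normal cells, a range that held every lesion. H2 differed from normal cells by -0.65 ± 0.32 (adjusted p = 0.252) on this probe set and by 1.24 and 0.04 on its other 2 probe sets. The probe set shared by Isg15 and Gm9706 read 4.17 to 5.59 in H1 and 4.02 to 4.66 in H2, against 3.78 to 4.91 in normal cells.

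The 4 interferon-inducible GTPases, which act against microbes inside cells, all had lower means in H1 than in normal cells (-1.10 to -0.48) and than in H2 (-1.07 to -0.28). Gbp2 had signals of 4.12, 4.07 and 4.90 in H1 and 5.92, 4.39, 5.22 and 4.87 in H2, against a lowest value of 3.99, a median of 5.47 and a highest of 6.75 in normal cells. H1 lay in the lower part of the normal range, with a difference of -1.10 ± 0.47 (SE; limma adjusted p = 0.997). Igtp had signals of 5.09, 3.55 and 3.88 in H1 and 6.29, 4.32, 5.94 and 4.44 in H2, against 4.07, 4.70 and 7.23 as the lowest, median and highest in normal cells. H1 replicates 3 and 4 lay below every normal sample. H1 differed from H2 by -1.07 ± 0.72 (adjusted p = 0.528). Gbp3 and Irgm1 differed from normal cells by -0.80 and -0.48 in H1 and by 0.20 and -0.20 in H2. Irgm1 averaged 3.05 over the arrays, under 3.99. H2 replicate 1 was the highest H2 lesion for all 4 GTPases, with Gbp3 at 6.97, the highest of the 15 arrays. Without normal replicate 3 all 4 still had lower means in H1 than in normal cells, with Igtp at -0.64 and Irgm1 at -0.27.

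Cxcl10, a chemokine that attracts T cells and is induced by interferon gamma, had signals of 3.74, 3.73 and 2.90 in H1 and 3.64, 2.46, 3.21 and 3.38 in H2, against 2.92, 3.38 and 4.18 as the lowest, median and highest in normal cells. The groups overlapped at these low signals, and the difference of H2 from normal cells was -0.30 ± 0.27 (SE; limma adjusted p = 0.541).

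Between H1 and H2, 5 of the 32 members had values that did not overlap, where 18.2% of all genes did not. They were H2-D1, Stat2 and Ifi35, higher in H1 (8.1% of all genes), and Bst2 and Mx1, lower in H1 (10.1%). On the other probe sets of H2-D1, Stat2 and Ifi35 the values of H1 and H2 overlapped. Bst2 and Mx1 have 1 probe set each. In lesions against normal cells, in H1 against normal cells and in H2 against normal cells no member's values were free of overlap, where 0.225%, 1.4% and 3.79% of all genes were.

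**Figure D4:**
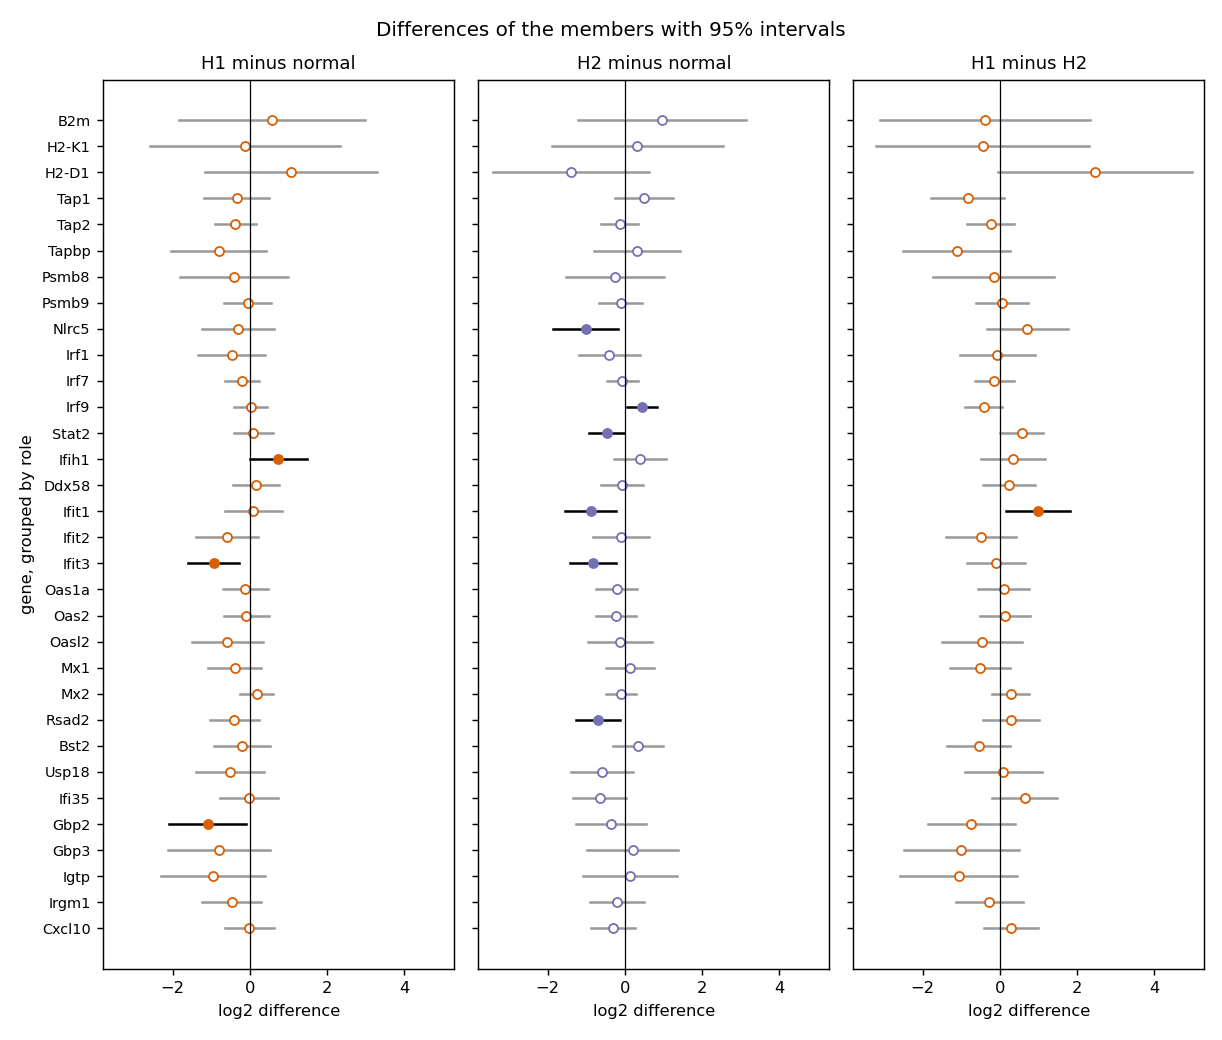
Log2 differences of the 32 members with their 95% intervals, in H1 minus normal cells, H2 minus normal cells and H1 minus H2, on 1 scale. Filled points have an unadjusted p under 0.05 and none has an adjusted p under 0.05; the widest intervals belong to B2m, H2-K1 and H2-D1.

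No further gene of the pathway was called. Of 95 further genes on 5 lists (interferon ligands, their receptors and JAK-STAT signalling, sensing of nucleic acids, other induced genes and other class I presentation genes), 79 were measured, and limma called 0 in each comparison. At an unadjusted p under 0.05, 2 were higher and 5 lower in lesions, 2 higher and 5 lower in H1, and 6 higher and 6 lower in H2, each against normal cells, and 3 were higher and 5 lower in H1 than in H2. Their median differences were -0.03 in lesions, -0.07 in H1, -0.04 in H2 and -0.07 between H1 and H2. Over all genes, limma gave an unadjusted p under 0.05 to 8.1% as higher and 4.66% as lower in lesions. In H1 these shares were 1.85% and 2.39%, in H2 12.7% and 8.7%, and in H1 against H2 4.9% and 7.41%.

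Among the ligands, Ifng, which encodes interferon gamma, had signals of 2.20 to 2.46 in H1, 2.46 to 3.03 in H2 and 2.22 to 2.64 in normal cells, all far below 3.99. Of the receptors and signalling genes, Ptpn2, a phosphatase that acts on JAK and STAT proteins, averaged 8.39 in H2 and 5.98 in normal cells, a difference of 2.41 ± 0.76 (SE; limma adjusted p = 0.0882). Jak2, a kinase of the interferon gamma receptor, differed by 1.48 ± 0.56 in H2 (adjusted p = 0.144). In normal replicate 3, Ptpn2 (8.46) lay within the H2 range and Jak2 (7.99) above it. Normal replicates 2 and 8 had the lowest values of both genes, 3.78 and 3.74 for Ptpn2 and 4.65 and 4.31 for Jak2. Tlr3, a sensor of double-stranded RNA in endosomes, averaged 7.08 in H2 and 5.87 in normal cells (difference 1.20 ± 0.48, adjusted p = 0.17).

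Ifit1bl1, a relative of Ifit1, had the lowest p-value of these genes. Its signals were 5.78, 5.78 and 5.96 in H1 and 4.40, 4.90, 4.06 and 3.64 in H2, against a lowest value of 4.42, a median of 4.89 and a highest of 5.75 in normal cells. All H1 values lay above all H2 and all normal values. Over all genes, H1 lay above H2 in 8.1%, and H1 and normal values did not overlap in 1.4%. H1 exceeded H2 by 1.59 ± 0.32 (SE; limma adjusted p = 0.24). Ifitm1, a membrane protein that restricts virus entry, averaged 4.62 in lesions and 5.40 in normal cells, a difference of -0.78 ± 0.24 (adjusted p = 0.181). Psmb10, the third immunoproteasome subunit, differed by -0.40 ± 0.16 in lesions (adjusted p = 0.315).

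Mean levels of cell type markers also differed between the groups. In lesions against normal cells, 9 of 10 endothelial markers had lower means (6 at an unadjusted p under 0.05, 0 called, median -0.72), among them the receptor component Ramp2 at 4.49 in lesions and 5.54 in normal cells (difference -1.05 ± 0.35 SE, limma adjusted p = 0.217). The mean endothelial level was 4.52 to 5.03 in H1, 4.43 to 4.85 in H2 and 4.40 to 6.56 in normal cells. Of 11 markers of T and NK cells, 9 had lower means in lesions, with Gzma, a granule protease, at 3.86 in lesions and 5.32 in normal cells (difference -1.46 ± 0.45, adjusted p = 0.183), and the list's mean level was 3.84 to 4.08 in H1, 3.76 to 3.97 in H2 and 3.92 to 4.43 in normal cells. All 7 alveolar type 2 markers had higher means in lesions (median 1.82), with mean levels of 7.84 to 9.57 in H1, 8.71 to 10.39 in H2 and 4.60 to 10.07 in normal cells. Normal replicates 2 and 8 had the lowest normal levels, 4.60 and 6.22. They were also the lowest for the epithelial markers given next, at 4.18 and 4.855. The marker differences without these samples are not given here. All 6 epithelial markers had higher means in lesions, with mean levels of 6.09 to 7.24 in H1, 6.91 to 8.08 in H2 and 4.18 to 7.47 in normal cells, and 3 of them (Cdh1, Krt8 and Krt18) were called higher in H2 than in normal cells, as was the alveolar type 2 marker Abca3. Of 6 fibroblast markers, limma called Col1a2, a collagen chain, higher in H2 (1.57 ± 0.37, adjusted p = 0.0341) and Itga8, an integrin chain, lower in H2 (-3.06 ± 0.42, adjusted p = 0.0028) and in lesions (-2.46 ± 0.42, adjusted p = 0.0267). Of 9 macrophage markers, 7 had higher means in H2 (3 at an unadjusted p under 0.05, as 12.7% of all genes had, and 0 called). In H1, 4 had higher and 5 lower means, 0 of them at that p. Of the other lists, 2 of 6 alveolar type 1, 2 of 5 dendritic cell and 1 of 4 neutrophil markers had higher means in lesions, and all 3 B cell markers had lower ones. The part of these markers in the members' differences was not tested. In pieces of tissue, fewer cells of a type and less RNA per cell cannot be told apart.

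The members' shift depended on which normal samples were used and on the spread of the arrays. With the array spread as a covariate the median difference was -0.43 in lesions, -0.36 in H1 and -0.47 in H2. Over all genes it was -0.04, -0.05 and -0.02. In that fit 28 of 32 members were lower in H2, and 8 were lower at an unadjusted p under 0.05 in lesions. The shares of all genes in that fit are not given here, so these counts cannot be set against them. In H1 against H2 that covariate left 23 of 32 members higher (median 0.22), where 18 were lower without it (median -0.13). The spreads of H1 (1.31 to 1.495) and H2 (1.52 to 1.78) do not overlap, so in that fit subtype and spread cannot be told apart. No member was called in that fit. Without normal replicates 2 and 8 the median difference was -0.34 in lesions, -0.41 in H1 and -0.30 in H2. Without normal replicates 2, 3 and 8 together, a choice made after seeing the data, it was -0.23, -0.19 and -0.17, with 22 of 32 members lower in each. The medians over all genes were then -0.02, -0.02 and -0.01, and the shares of all genes lower are not given here.

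**Figure D5:**
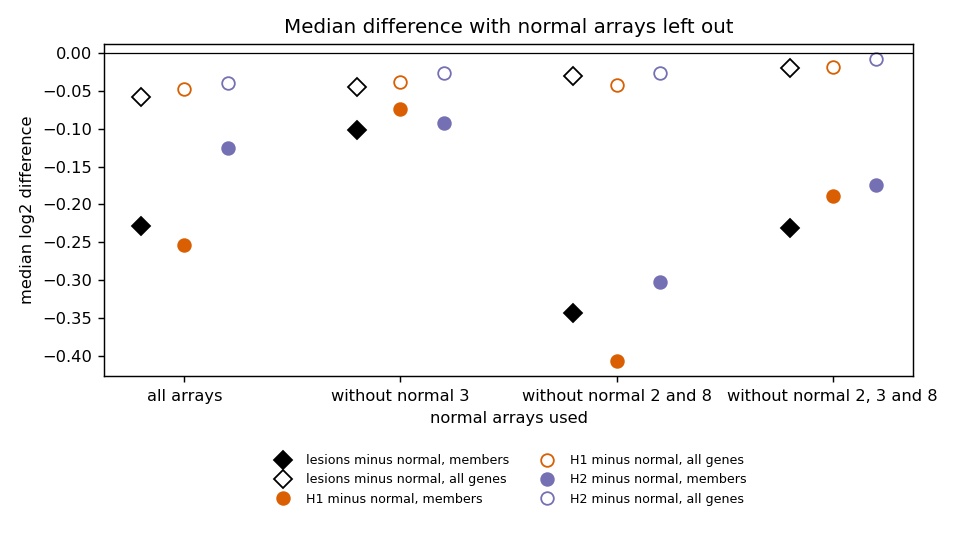
Median log2 difference of the 32 members (filled) and of all genes (open) in lesions, H1 and H2 against normal cells, with all arrays and with normal replicates left out. The members' medians run from -0.07 to -0.41 and lie below those of all genes in each case shown.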

How the data were processed

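RNA from 15 laser-captured samples of mouse lung was amplified with the WT-Ovation One-Direct system and measured on Affymetrix arrays, per the labels' protocols and the design text. The authors deposited log2 signals, 1 per probe set, and the submitters' processing notes name affy and RMA (background correction, quantile normalization and probe summary), with no version. RMA evens out probe intensities but not the spread of the probe set values of an array. Depth has no meaning for arrays, and the number of samples limits the precision.

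From the table of 45101 probe sets, 64 controls were left out, and 34945 carried 1 gene symbol, 932 several and 9160 none in the platform annotation, which can be old. Symbols with 1 gene gave 18193 genes. All 32 measured members have gene IDs in RefSeq's table for GRCm38.p6. No 2 arrays were identical (highest correlation over genes 0.94).

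Groups came from the source names. limma (version 3.58.1, R version 4.3.3) was fitted to all genes with lmFit and eBayes: a 2-group fit for lesions against normal cells, and a 3-group fit, sharing 1 estimate of the spread, for H1 and H2. The scripts were tested on simulated data. Members named with every value were the class I chains and the 2 of each role with the lowest unadjusted p. The members and lists were chosen with earlier results of these data known, so no set test or p over the list was computed. Alternatives covered centring, quantile normalization done again, leaving out dim genes, the choice of probe set, the prior, array weights, a replicate block, the array spread as a covariate and leaving out arrays.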

Additional observations from a re-analysis of the deposited data

Results flagged for a closer look

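Of 64 sets of values (32 members in the 4 H2 and the 8 normal arrays), 7 held 1 value far from the rest of its group, by Dixon's criterion at 95%, where chance flags about 1 in 20. Of these, 5 were in normal replicate 3: Tapbp at 8.45 (next highest normal sample 6.50), Psmb8 at 7.89 (5.00), Irf1 at 7.32 (5.68), Irgm1 at 4.66 (3.31) and H2-D1 at 2.65, the lowest, where the next was 6.12. In H2, Irf9 was 4.09 in replicate 6 (next 3.55) and Oas2 was 3.36 in replicate 5 (next lowest 4.04). No member differed between H1 and H2 past an adjusted p of 0.05 in limma, and 1 did at an unadjusted p under 0.05.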

How the results depend on the processing

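The count of members called was 0 in each of the 4 comparisons, and stayed 0 under every alternative but 2, both in H2 against normal cells: it was 1 with array weights (Ifit1) and 0 to 1 with each array left out in turn (H2-D1 without normal replicate 3). With the replicate block it was 0 as well, but no label ties a number to an animal, and whether the numbers pair the samples is not settled here: 4 of 7 pairs of the same number had deviations correlated over 0.1 (r from -0.14 to 0.38), and 1 of 7 lesions correlated best with the normal sample of its number. The block placed B2m at -0.001 and H2-K1 at -0.081 in H2 against normal cells. Over all genes, limma called 525 higher and 90 lower in H2 against normal cells in the main fit. With array weights these counts were 1586 and 613, and without normal replicate 3 they were 1104 and 274.

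Of 24 differences of named members followed over 288 alternative values, 265 stayed on the same side of 0. B2m turned to -0.54 in lesions with the spread covariate, -0.49 without normal replicates 2 and 8 and -0.25 without 2, 3 and 8. In H1 it was -0.71 and -0.47 in the last 2 of these, and in H2 -1.65, -0.32 and -0.083 in all 3. H2-K1 in H2 was -0.26 with repeated quantile normalization, -0.16 as the mean of its probe sets, -2.62 with the spread covariate, -0.70 without normal replicates 2 and 8 and -0.17 without 2, 3 and 8. H1 against H2, it was 0.22 with repeated quantile normalization and 2.08 with the spread covariate, which does not overlap between H1 and H2. H2-D1 in H1 was -0.24 as the mean of its probe sets and -0.25 on its second probe set, and in H2 1.21 with the spread covariate. Ifi35 in H2 was 0.21 as the mean of its probe sets and 1.24 on the most variable one, and Ddx58 was -0.062 in H1 against H2 with array weights. With 1 array left out, values ran from -0.88 to 0.028 for H2-K1 and from -0.08 to 0.43 for Ddx58 in H1 against H2, and for H2-K1 from -0.76 to 0.40 in H1 and from -0.31 to 0.85 in H2. The causes were not tested, and signals under 3.99 limit 7 members.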
